A study of Mus musculus with 4 samples.

Results

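Scavenger receptors are surface proteins with which macrophages bind and take up modified lipoproteins, microbes, dying cells and debris, and several of them mark macrophages that live in a tissue rather than those newly made from monocytes. In the spleen, red pulp macrophages clear old red cells, and marginal zone macrophages filter blood-borne particles. In bone marrow, resident macrophages sit among developing red cells. The 10 genes described here were taken by symbol from each library's gene table, and all 10 of the 17008 genes with a read in any library were found. They are Marco and Msr1 (class A scavenger receptors with collagen-like stalks), Cd36 and Scarb1 (class B receptors for lipids and lipoproteins), Mrc1 (the mannose receptor) and Siglec1 (sialoadhesin, which binds sialic acid). The others are Cd68 (a glycoprotein of macrophage lysosomes), Vsig4 (a receptor for fragments of complement C3), and the secreted proteins Cd5l and Fcna. Cd5l encodes an inhibitor of apoptosis released by tissue macrophages, and Fcna a ficolin that recognises sugars on microbes.

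The RNA came from macrophages sorted from C57BL/6J mice of 6 to 8 weeks. The T-ALL groups are bone marrow and spleen 21 days after GFP-marked T cell acute lymphoblastic leukaemia cells taken from leukaemic mice were transplanted into hosts that were not irradiated. The normal groups are bone marrow and spleen of normal mice, the protocol's day 0. Each of the 4 groups is 1 library, so differences could not be set against a spread between mice, and p-values were not computed. Neither the sort markers nor the number of mice per library was given in the sources used here. The design compares macrophages of leukaemia with those of homeostasis.

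Scaled totals were 8939756 to 9856657 uniquely mapped reads per library, and 1 read was worth 0.101 to 0.112 CPM (a gene's reads relative to that total). All 14 genes of a macrophage core list had reads in every library, but the libraries were far from equal in them. Emr1, which encodes F4/80, stood at 303 CPM in T-ALL and 39.5 CPM in normal bone marrow, and at 429 CPM in T-ALL spleen and 698 CPM in normal spleen. The core list summed to 12115 CPM in T-ALL bone marrow, 5560 CPM in normal bone marrow, 4938 CPM in T-ALL spleen and 9483 CPM in normal spleen. Lyz2 alone gave 5494, 2572, 241 and 946 CPM of these sums, in the same order. The sums do not rank the libraries as Emr1 does. Neutrophil precursor genes, at 6 of 6 with reads in every library, summed to 3697 CPM in T-ALL bone marrow, 14976 CPM in normal bone marrow, 67.2 CPM in T-ALL spleen and 77.4 CPM in normal spleen. Mature neutrophil genes reached 27161 CPM in T-ALL and 34903 CPM in normal bone marrow, above the macrophage core in both. T cell genes summed to 623, 142, 2826 and 749 CPM in T-ALL bone marrow, normal bone marrow, T-ALL spleen and normal spleen. Sex-linked transcripts differed too, between the T-ALL libraries as well as between conditions. Xist, from the inactive X chromosome, had 6 reads in T-ALL bone marrow, 8485 reads in normal bone marrow, 3846 reads in T-ALL spleen and 7588 reads in normal spleen. The Y-linked Ddx3y had 874 and 532 reads in T-ALL bone marrow and spleen and 0 reads in both normal libraries, a count that allows up to 3. Y-linked reads thus differed along with condition, and a difference of sex cannot be told apart from a difference of leukaemia. The part of these differences in the results below was not tested, and fewer macrophages cannot be told apart from less RNA of a gene per macrophage.

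**Figure D1:**
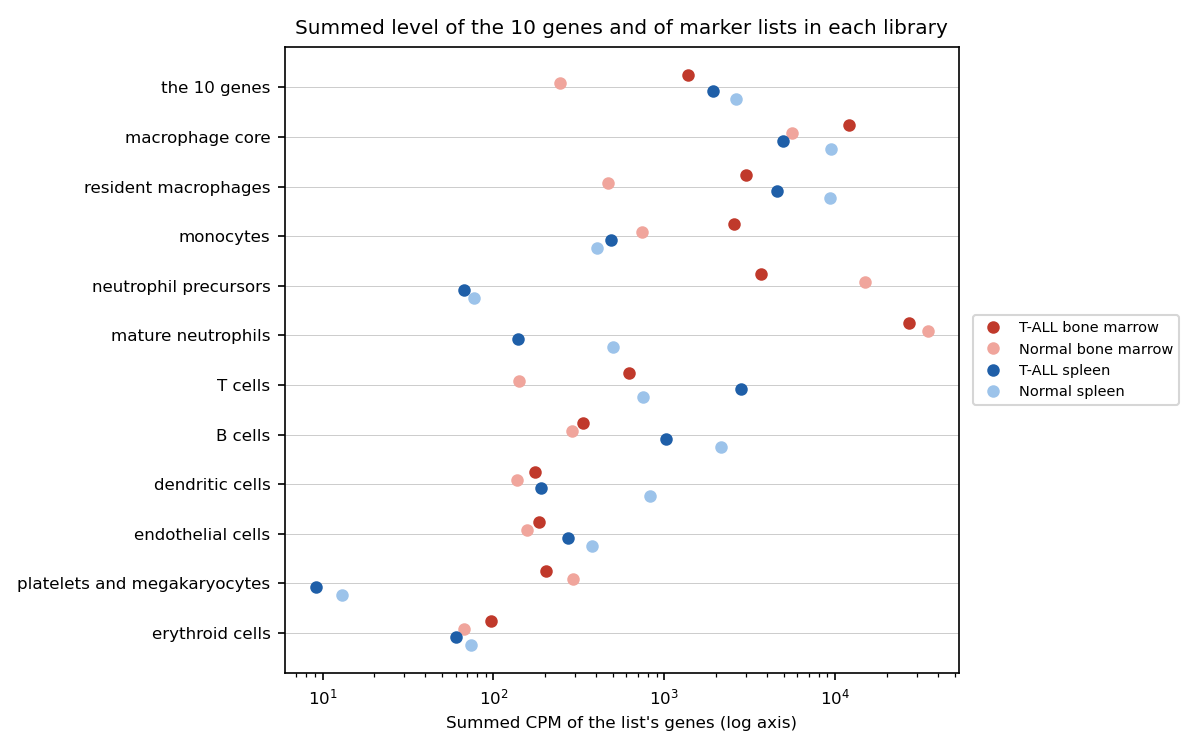
Summed CPM (x axis, log scale) of the 10 genes and of lists of marker genes (y axis), with 1 point per library coloured by organ and condition. The 10 genes summed to 1377 CPM in T-ALL bone marrow, 245 CPM in normal bone marrow, 1922 CPM in T-ALL spleen and 2623 CPM in normal spleen, while neutrophil genes stood far higher in both bone marrow libraries than in the spleen.

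Upstream sequence is shown for Marco and Cd5l, the 2 genes higher in T-ALL spleen, and for Mrc1 and Fcna, the 2 with the highest CPM in normal spleen, which were lower in T-ALL spleen. Each run is the 250 bases before the start site in RefSeq's GRCm38.p6 table, 5′ to 3′ on the gene's own strand, and 7 of the 10 genes had an entry. The start sites listed for Fcna and Cd36 lie 7466 and 53063 bases inside the genes' outermost RefSeq ends, so their windows precede an internal start. Capitals mark every match on either strand to 5 motifs: GAGGAA (an ETS core bound by PU.1 and Spi-C), TGCTGA (part of the site of MAF factors), AGGTCA (the core that nuclear receptors bind), TATAAA and CACGTG. In capitals, TTCCTC and TCAGCA are the first 2 read on the other strand.
Marco, chr1:120505025-120505274, minus strand: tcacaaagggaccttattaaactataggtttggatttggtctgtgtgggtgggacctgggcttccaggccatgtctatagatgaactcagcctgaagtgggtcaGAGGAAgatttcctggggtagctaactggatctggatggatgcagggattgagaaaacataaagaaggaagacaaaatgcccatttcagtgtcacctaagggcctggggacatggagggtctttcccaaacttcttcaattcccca
Cd5l, chr3:87357631-87357880, plus strand: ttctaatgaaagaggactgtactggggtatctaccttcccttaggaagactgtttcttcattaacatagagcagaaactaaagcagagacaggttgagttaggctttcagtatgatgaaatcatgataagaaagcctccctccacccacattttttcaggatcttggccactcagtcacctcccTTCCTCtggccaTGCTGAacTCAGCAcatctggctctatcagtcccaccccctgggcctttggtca
Mrc1, chr2:14229164-14229413, plus strand: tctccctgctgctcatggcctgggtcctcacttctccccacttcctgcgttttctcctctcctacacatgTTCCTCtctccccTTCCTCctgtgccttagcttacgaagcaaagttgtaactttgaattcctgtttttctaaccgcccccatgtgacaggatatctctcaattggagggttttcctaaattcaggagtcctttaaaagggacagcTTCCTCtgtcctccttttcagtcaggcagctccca
Fcna, chr2:25627975-25628224, minus strand: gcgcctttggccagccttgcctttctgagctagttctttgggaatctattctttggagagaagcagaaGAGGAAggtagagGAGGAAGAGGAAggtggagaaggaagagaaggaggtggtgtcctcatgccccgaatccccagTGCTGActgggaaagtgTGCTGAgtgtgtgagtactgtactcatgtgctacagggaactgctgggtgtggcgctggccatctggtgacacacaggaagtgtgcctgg

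The ETS core GAGGAA was found in 6 of the 7 windows (Cd5l, Cd68, Fcna, Marco, Mrc1 and Vsig4) and in 23.3% of the 32851 windows of all genes. TGCTGA was found in 3 of 7 (Cd36, Cd5l and Fcna) and in 16.1% of all windows. The only AGGTCA match was in Cd36, against 14.0% of all windows. TATAAA and CACGTG had no match in the 7, and 12.4% and 6.02% of all windows hold them. Matches did not overlap each other in the printed runs. In Fcna 2 ETS cores lie side by side, and in Cd5l the ETS core starts at -66, close to a pair of opposed MAF matches at -54 and -46. A match is a run of letters and not a measured binding site.

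In bone marrow, 7 of the 10 genes were higher in T-ALL and 0 were lower. Cd5l, Fcna, Mrc1, Siglec1 and Msr1 were 10.8-fold to 19.2-fold higher, and Cd36 and Cd68 7.05-fold and 5.38-fold higher. Scarb1 hardly differed, and Marco and Vsig4 stayed under 10 CPM in both libraries. Monocyte genes were also higher in T-ALL bone marrow, 4 of 6 (median log2 fold 2.33), with a sum of 2552 CPM in T-ALL and 744 CPM in normal bone marrow, and their part in these changes was not tested. In spleen 5 genes (Siglec1, Cd36, Mrc1, Msr1 and Fcna) were lower in T-ALL, by 2.05-fold to 4.06-fold, while Marco and Cd5l were 2.72-fold and 2.10-fold higher. Higher and lower are called by size alone, from 2-fold upwards on the log2(CPM + 1) scale, and only where one of the pair of libraries reached 10 CPM. In bone marrow 8.01% of the 9716 genes past that minimum were higher and 1.03% lower. In spleen 10.3% of 9774 genes were higher and 11.0% lower. The median log2 fold over all 10 genes, low ones included, was 2.92 in bone marrow and -1.05 in spleen, beside -0.04 and -0.08 over all genes measured.

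**Figure D2:**
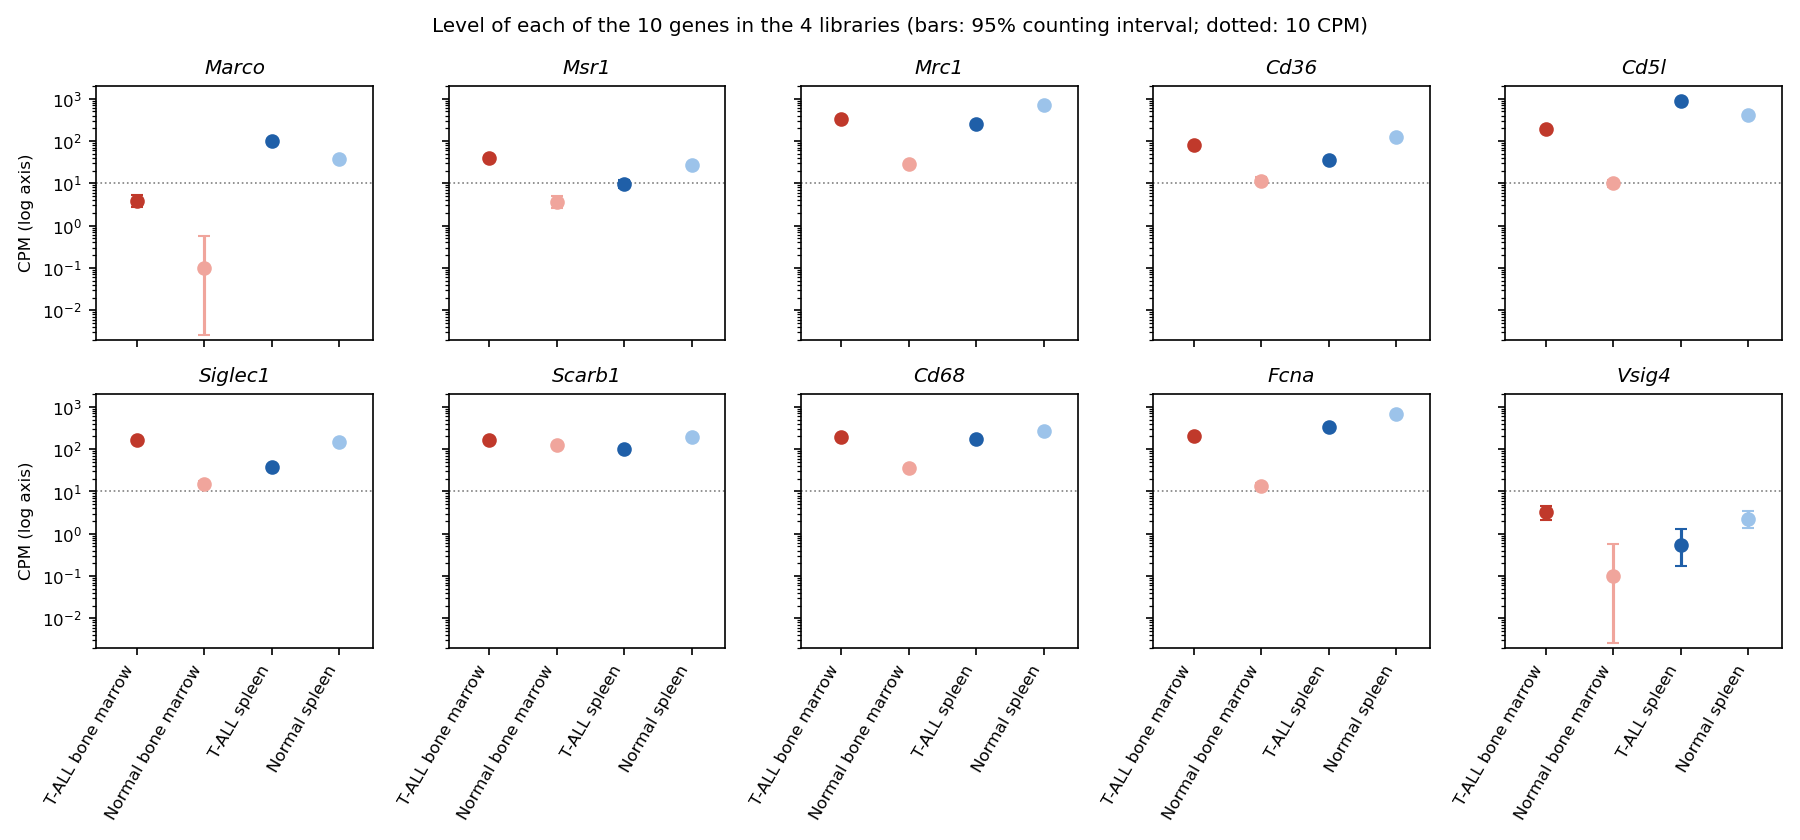
CPM (y axis, log scale) of each of the 10 genes in T-ALL bone marrow, normal bone marrow, T-ALL spleen and normal spleen (x axis), with bars for the 95% counting interval and a dotted line at 10 CPM. Normal bone marrow was the lowest library for every gene except Scarb1, and Marco and Vsig4 had a single read there.

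Of the class A receptors, Marco was almost confined to the spleen libraries and Msr1 was not. Marco (Gene ID 17167), known from marginal zone macrophages, was at 3.86 CPM in T-ALL bone marrow, 0.101 CPM in normal bone marrow, 102 CPM in T-ALL spleen and 37.6 CPM in normal spleen. Both spleen libraries lay above both bone marrow libraries. In spleen it was 2.72-fold higher in T-ALL (95% counting interval 2.40 to 3.10). In bone marrow it had 36 reads in T-ALL and 1 read in normal mice, a ratio of 38.1 (6.41 to 1545), but it stayed under the 10 CPM minimum. Intervals here cover counting error alone, from exact binomial limits on the pair of counts, and take reads as independent.

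Msr1 (Gene ID 20288), the class A receptor of macrophages in many tissues, differed from Marco in the order of the T-ALL libraries. It was at 39.5 CPM in T-ALL bone marrow, 3.65 CPM in normal bone marrow, 9.64 CPM in T-ALL spleen and 27.3 CPM in normal spleen. T-ALL bone marrow was the highest library for Msr1, as T-ALL spleen was for Marco, and normal spleen came next for both. Msr1 was 10.8-fold higher in T-ALL bone marrow (7.67 to 15.7) and 2.83-fold lower in T-ALL spleen (2.21 to 3.65). Per length, the RPKM of Msr1 was 5.57 times that of Marco in T-ALL bone marrow but 0.0513 times in T-ALL spleen and 0.396 times in normal spleen.

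The class B receptors differed from each other. Cd36 (Gene ID 12491), which takes up fatty acids and oxidised lipoproteins and binds thrombospondin, was at 82.2 CPM in T-ALL bone marrow, 11.7 CPM in normal bone marrow, 36.4 CPM in T-ALL spleen and 122 CPM in normal spleen. It was 7.05-fold higher in T-ALL bone marrow (5.79 to 8.65) and 3.35-fold lower in T-ALL spleen (2.97 to 3.80). Platelets and endothelium also make Cd36. The 5 platelet and megakaryocyte genes summed to 202 CPM in T-ALL bone marrow, 294 CPM in normal bone marrow, 9.09 CPM in T-ALL spleen and 12.98 CPM in normal spleen. The endothelial list summed to 184, 157, 272 and 378 CPM in the same order, highest in normal spleen, as Cd36 was. Most of that sum was Pecam1 and Stab2, which were not shown to mark endothelium alone. Tie1, Tek and Emcn were highest in normal bone marrow instead, and the levels of single genes are given beside Mrc1. The part of either cell type in the level of Cd36 was not tested.

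Scarb1 (Gene ID 20778), the receptor for high-density lipoprotein, stood apart from the other 9. Its level was 164 CPM in T-ALL bone marrow, 127 CPM in normal bone marrow, 102 CPM in T-ALL spleen and 194 CPM in normal spleen, less than a 2-fold range in all. The ratio of T-ALL to normal was 1.30 in bone marrow (1.20 to 1.40) and 0.526 in spleen (0.486 to 0.570), and neither passed 2-fold on the log scale with the pseudocount. In normal bone marrow, where the other 9 genes were at their lowest, Scarb1 had 3.21 CPM per CPM of Emr1, against 0.541 in T-ALL bone marrow, 0.238 in T-ALL spleen and 0.278 in normal spleen. Emr1 was itself lowest in normal bone marrow, at 39.5 CPM, so the ratio does not show more Scarb1 per macrophage. The part of RNA of other cells in the level of Scarb1 was not tested.

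Both lectins were higher in T-ALL bone marrow and lower in T-ALL spleen. Mrc1 (Gene ID 17533), which binds mannose and other sugars on glycoproteins, was at 325 CPM in T-ALL bone marrow, 29.0 CPM in normal bone marrow, 252 CPM in T-ALL spleen and 714 CPM in normal spleen. The 2 T-ALL libraries lay between the 2 normal ones. It was 11.2-fold higher in T-ALL bone marrow (9.91 to 12.7) and 2.83-fold lower in T-ALL spleen (2.70 to 2.97). Siglec1 (Gene ID 20612), known from marginal metallophilic macrophages of the spleen and resident macrophages of bone marrow, was at 168 CPM in T-ALL bone marrow, 15.1 CPM in normal bone marrow, 37.2 CPM in T-ALL spleen and 151 CPM in normal spleen. It was 11.1-fold higher in T-ALL bone marrow (9.40 to 13.3) and 4.06-fold lower in T-ALL spleen (3.60 to 4.58), the largest fall there among those of the 10 genes that reached 10 CPM. In T-ALL spleen the RPKM of Marco was 8.90 times that of Siglec1, against 0.805 times in normal spleen. Sinusoidal endothelium also makes Mrc1, and the endothelial sum is given beside Cd36. Most of that sum was Pecam1, at 121 CPM in T-ALL bone marrow, 99.7 CPM in normal bone marrow, 208 CPM in T-ALL spleen and 230.1 CPM in normal spleen, and Stab2, at 24.4, 4.67, 58.9 and 138 CPM in the same order, both highest in normal spleen, as Mrc1 was. Tie1 and Tek ran the other way, both highest in normal bone marrow. In the same order of libraries, Tie1 was at 24.5, 34.4, 0.325 and 0.447 CPM, and Tek at 6.65, 9.84, 0.217 and 0.671 CPM. Kdr was at 2.36, 3.45, 2.71 and 5.15 CPM. Emcn had 0 reads in both spleen libraries and Lyve1 had 0 reads in normal spleen, and Cdh5 was at 1.41 to 3.13 CPM throughout. The part of endothelial RNA in the levels of Mrc1 was not tested.

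The genes of the secreted proteins reached the highest RPKM of the group, both in spleen. Cd5l (Gene ID 11801) was at 191 CPM in T-ALL bone marrow, 9.94 CPM in normal bone marrow, 875 CPM in T-ALL spleen and 417 CPM in normal spleen. It was the single gene of the 10 called higher in both organs, 19.2-fold in bone marrow (15.7 to 23.8) and 2.10-fold in spleen (2.02 to 2.18). Across all genes, 82 of 10312 were higher in both organs (0.795%) and 289 were higher in bone marrow and lower in spleen (2.80%). Fcna (Gene ID 14133) was at 209 CPM in T-ALL bone marrow, 13.5 CPM in normal bone marrow, 335 CPM in T-ALL spleen and 688 CPM in normal spleen. It was 15.5-fold higher in T-ALL bone marrow (12.99 to 18.6) and 2.05-fold lower in T-ALL spleen (1.97 to 2.14). That fall lay at the edge of the rule, at a log2 fold of -1.04. It missed 2-fold with median-of-ratios scaling (-0.99) and with scaling that leaves out the listed marker genes of other cell types (-0.87). Per length, Cd5l was at 1.69 times the RPKM of Fcna in T-ALL spleen and at 0.392 times in normal spleen, so the order of the pair was reversed.

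Cd68 and Vsig4 complete the set. Cd68 (Gene ID 12514), used as a general marker of macrophages, was at 192 CPM in T-ALL bone marrow, 35.6 CPM in normal bone marrow, 172 CPM in T-ALL spleen and 269.9 CPM in normal spleen. It was 5.38-fold higher in T-ALL bone marrow (4.80 to 6.05), and in spleen its T-ALL level was 0.638 of the normal one (0.598 to 0.680), under 2-fold. Vsig4 (Gene ID 278180), best known from Kupffer cells of the liver, was at 3.22 CPM in T-ALL bone marrow, 0.101 CPM in normal bone marrow, 0.541 CPM in T-ALL spleen and 2.24 CPM in normal spleen, from 30, 1, 5 and 20 reads. The ratio of T-ALL to normal was 31.7 in bone marrow (5.28 to 1295) and 0.242 in spleen (0.0710 to 0.664), and neither is called at these levels. The gene is X-linked, and Xist was at 0.644, 861, 416 and 849 CPM in T-ALL bone marrow, normal bone marrow, T-ALL spleen and normal spleen. Whether the difference in Xist bears on Vsig4 was not tested.

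**Figure D3:**
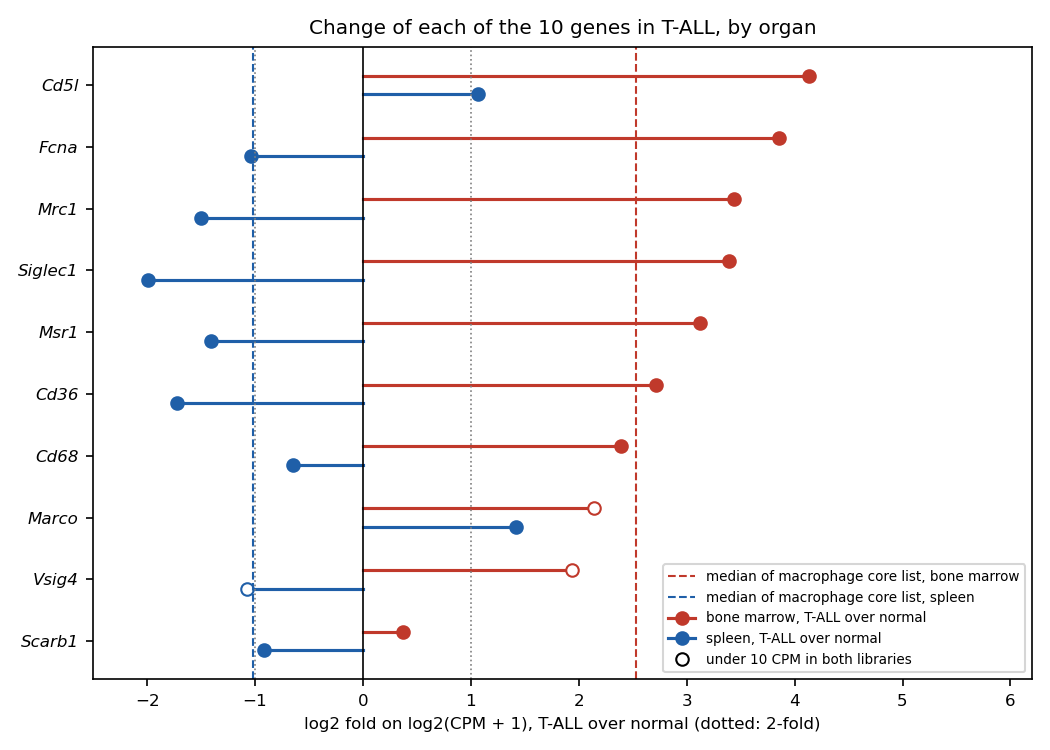
Log2 fold of T-ALL over normal on log2(CPM + 1) (x axis) for each of the 10 genes (y axis), in bone marrow (red) and in spleen (blue), with dotted lines at 2-fold and dashed lines at the median of the macrophage core list in each organ. In bone marrow Cd5l, Fcna, Mrc1, Siglec1, Msr1 and Cd36 lie beyond the core median of 2.53, and in spleen Marco and Cd5l lie on the other side of 0 from the core median of -1.02.

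The changes of the macrophage core list are set beside these folds, but the list was not shown to mark macrophages alone. Between the normal organs 11 of its 14 genes were higher in spleen, while Itgam and Lyz2 were lower there, as neutrophil genes were. In T-ALL bone marrow 12 of the 14 core genes were higher (median log2 fold 2.53), led by Mertk (14.9-fold, 10.6 to 21.5), a receptor for dying cells. In spleen 8 of 14 were lower (median -1.02), led by Lyz2, lysozyme, at 3.92-fold (3.74 to 4.11). When folds were set against these medians, Cd5l and Fcna remained higher in bone marrow, Scarb1 was lower, and in spleen Marco and Cd5l remained higher and 0 of the 10 were lower. On that scale 0.206% of all genes measured were higher and 95.5% lower in bone marrow, and 47.0% were higher and 1.26% lower in spleen. Relative to Emr1, itself chosen after its values were seen, Cd5l was at 0.629 CPM per CPM in T-ALL bone marrow and 0.252 in normal bone marrow, and at 2.04 in T-ALL spleen and 0.597 in normal spleen. Marco was at 0.238 per Emr1 in T-ALL spleen and 0.0539 in normal spleen. Siglec1 was at 0.554 in T-ALL and 0.383 in normal bone marrow, and at 0.0867 in T-ALL and 0.217 in normal spleen. On the same measure Cd68 in spleen was nearly level, at 0.401 in T-ALL and 0.387 in normal mice.

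Between organs, the normal spleen library was above normal bone marrow in 8 of the 10 genes and below it in 0. Of 10072 genes measured, 16.1% were higher and 14.0% lower in normal spleen. The ratio of normal spleen to normal bone marrow was 51.0 for Fcna (42.9 to 61.0), 41.9 for Cd5l (34.3 to 51.8), 24.6 for Mrc1 (21.9 to 27.8) and 370.5 for Marco, the last from 336 reads against 1 (66.0 to 14675.5). The smallest ratios were 1.53 for Scarb1 (1.42 to 1.65), which was not called, and 7.47 for Msr1 (5.25 to 10.9). Neutrophil genes ran the other way, with 6 of 6 precursor and 7 of 7 mature neutrophil genes lower in normal spleen. The median log2 fold of the macrophage core was 2.72, and against it 4 of the 10 genes (Marco, Mrc1, Cd5l and Fcna) were higher and Scarb1 was lower, beside 1.60% of all genes higher and 91.1% lower.

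Within leukaemia 5 of the 10 genes were called different between the organs. T-ALL spleen was above T-ALL bone marrow for Marco, 26.5-fold (19.0 to 38.1), and Cd5l, 4.58-fold (4.35 to 4.83). It was below T-ALL bone marrow for Siglec1, 4.52-fold (4.02 to 5.09), Msr1, 4.10-fold (3.24 to 5.23), and Cd36, 2.26-fold (1.99 to 2.58). Among 9852 genes measured, 5.44% were higher and 11.0% lower. Mrc1, Cd68, Fcna and Scarb1 were under 2-fold, with ratios of spleen to bone marrow of 0.776, 0.899, 1.60 and 0.622. Monocyte genes were lower in T-ALL spleen in 5 of 6. The comparisons between organs use the same 4 libraries as those between conditions and are not independent of them.

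The make-up of the group also differed, as a share of the summed RPKM of the 10 genes. Scarb1 led in normal bone marrow, with 44.4% of the sum, and Cd68 led in T-ALL bone marrow with 30.0%. In T-ALL spleen Cd5l led with 42.4%, and in normal spleen Fcna with 40.5%. Cd5l was at 14.8% of the sum in T-ALL bone marrow, 4.33% in normal bone marrow and 15.8% in normal spleen. Marco took 5.09% in T-ALL spleen and 1.47% in normal spleen, and at most 0.308% in bone marrow. The summed RPKM was 627 in T-ALL bone marrow, 113 in normal bone marrow, 1021 in T-ALL spleen and 1286 in normal spleen.

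**Figure D4:**
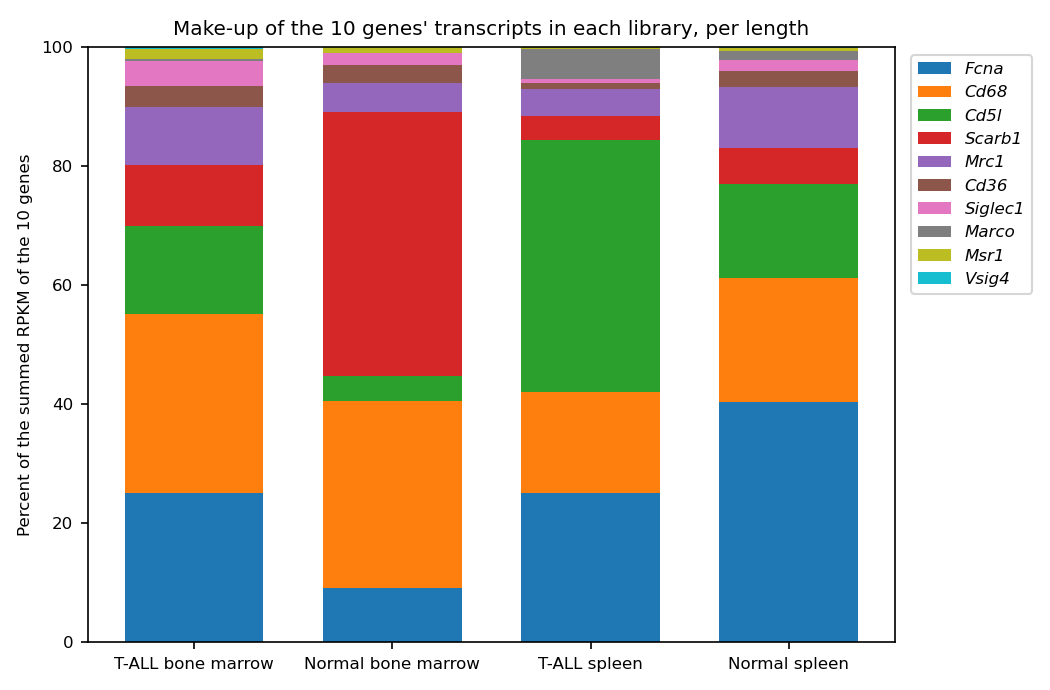
Share of each of the 10 genes in their summed RPKM (y axis, percent) in T-ALL bone marrow, normal bone marrow, T-ALL spleen and normal spleen (x axis), stacked to 100%. The leading gene is a different one in each library: Cd68 in T-ALL bone marrow, Scarb1 in normal bone marrow, Cd5l in T-ALL spleen and Fcna in normal spleen.

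Other scavenger receptors moved in part like these genes. Of 16 listed, 9 were measured in bone marrow, where 6 were higher and 1 was lower in T-ALL. Lrp1, a large receptor for lipoproteins and proteases, was at 631 CPM in T-ALL and 63.6 CPM in normal bone marrow. The haemoglobin receptor Cd163 was at 157 and 18.2 CPM, the beta-glucan receptor Clec7a at 195 and 29.7 CPM, and Stab2, which binds hyaluronan and is also made by sinusoidal endothelium, at 24.4 and 4.67 CPM in the same order. In spleen 3 of 6 were lower and 0 higher. Cd163 was at 45.3 CPM in T-ALL and 311 CPM in normal spleen, 6.86-fold lower (6.19 to 7.62), a larger ratio than for any of the 10 genes. Stab2 and Cxcl16, a chemokine that also binds oxidised lipoprotein, were 2.34-fold (2.12 to 2.60) and 2.11-fold (1.73 to 2.57) lower.

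Close relatives of the 10 genes mostly did not follow them in bone marrow. Of 14 listed symbols, 9 were measured in bone marrow, with Cd33 2.11-fold higher (1.86 to 2.39) in T-ALL and 1 gene lower. The lower one was Fcnb, the second mouse ficolin, made by granulocyte precursors, at 252 CPM in T-ALL and 712 CPM in normal bone marrow, where Fcna was at 209 and 13.5 CPM. Scarb2, the lysosomal relative of Cd36 and Scarb1, was at 91.5 and 46.0 CPM in bone marrow, just under 2-fold. In spleen, Mrc2, Siglecg and Siglech were lower in T-ALL, 3 of 7 measured, and 0 were higher. Mrc2 was at 1.84 CPM in T-ALL and 11.4 CPM in normal spleen. Siglecg, known from B cells, was 2.89-fold lower (2.65 to 3.15), and the 5 B cell genes summed to 1018 CPM in T-ALL and 2133 CPM in normal spleen. Siglech, known from plasmacytoid dendritic cells, was 2.71-fold lower (1.84 to 4.07), at 4.01 CPM in T-ALL and 10.9 CPM in normal spleen. The higher value is close to the 10 CPM minimum. The 5 dendritic cell genes summed to 190.1 CPM in T-ALL and 828 CPM in normal spleen. Most of that sum was Itgax, at 152 and 569 CPM, and the list was not shown to mark plasmacytoid cells. The part of B cell or dendritic cell RNA in these changes was not tested.

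Genes of resident macrophages were all higher in T-ALL bone marrow, 11 of 11 measured. Itgad, an integrin of red pulp macrophages, was at 101 CPM in T-ALL and 7.71 CPM in normal bone marrow, and the complement chains C1qc, C1qa and C1qb were 11.3-fold, 9.85-fold and 9.73-fold higher. In spleen 5 of 11 were lower and 0 higher. Besides Cd163 they included the iron exporter Slc40a1, 3.18-fold lower (3.08 to 3.28), Hmox1, which breaks down haem, 2.64-fold lower (2.57 to 2.72), and the adhesion molecule Vcam1, 2.02-fold lower (1.97 to 2.07) and thus close to the threshold. The median log2 fold of the list was 3.18 in bone marrow and -0.72 in spleen.

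Among ligands and partners, 5 of 9 measured genes were higher in T-ALL bone marrow, and in spleen 1 was higher and 3 were lower. Thbs1, a ligand of Cd36, was called higher in both organs. It was at 219 CPM in T-ALL and 26.6 CPM in normal bone marrow, and at 10.3 CPM in T-ALL and 2.91 CPM in normal spleen. Lpl, which releases fatty acids from lipoproteins, was 10.01-fold higher in T-ALL bone marrow (8.62 to 11.7). Apoe and Tlr6, a partner of Cd36 in sensing oxidised lipoprotein, were higher in T-ALL bone marrow, 4.98-fold (4.80 to 5.18) and 3.23-fold (2.22 to 4.79), and lower in T-ALL spleen, 2.60-fold (2.53 to 2.68) and 3.55-fold (2.58 to 4.97). Tlr4 was 2.20-fold lower in T-ALL spleen (1.93 to 2.52). The ficolin-associated proteases Masp1 and Masp2 had 7 reads and 1 read in T-ALL spleen and 0 reads in the other libraries.

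Transcription factors known to act in these macrophages were higher in T-ALL bone marrow in 7 of 11. Among them were Spic, which red pulp macrophages need (9.64-fold, 7.03 to 13.5), Nr1h3, the liver X receptor that drives Cd5l (6.87-fold, 5.18 to 9.24), and Maf (4.97-fold, 4.06 to 6.11). In spleen 3 of 11 were lower, among them Maf, 2.70-fold (2.45 to 2.99), and Spi1, which encodes PU.1, 2.21-fold (2.07 to 2.36). Nr1h3 was at 189 CPM in T-ALL and 155 CPM in normal spleen and was not called.

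The genes whose pattern over the 4 libraries was most like each of the 10 were found by the root mean square difference of log2(CPM + 1), centred on each gene's own mean, among 9855 genes. With 4 libraries this is a description and close matches are easily found. For Cd5l they were Dtx1, a Notch target (difference 0.380), and Nr1h3 (0.637). For Fcna the nearest was Mertk (0.191). For Mrc1 they were Slco2b1 (0.137) and Axl (0.184), and for Cd36 Lilra5 (0.116) and Fcgr1 (0.165). Siglec1 lay nearest to S1pr5 (0.178) and S100a4 (0.222), and Msr1 to Apoc2 (0.195) and Krt80 (0.196). Cd68 was nearest to Acvrl1 (0.0834) and Sirpb1a (0.0975), Scarb1 to Dyrk1b (0.0226) and Hbp1 (0.0250), and Vsig4 to Tgfbi (0.0637) and Nupr1 (0.126). Vsig4 stayed at or under 3.22 CPM, where the pseudocount compresses differences, so its close matches do not mean similar plain ratios. In bone marrow Tgfbi was at 493 CPM in T-ALL and 119 CPM in normal mice, and Vsig4 at 3.22 and 0.101 CPM. Marco was nearest to Clec4n (0.583), the largest nearest difference among the 10 genes, and Hs3st2 (0.711). Among the 10 genes themselves Msr1 and Siglec1 were most alike (0.249) and Marco and Scarb1 least (2.62).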

How the data were processed

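Macrophage RNA was sequenced in 4 libraries, and groups were taken from the sample titles. Per the file headers, each deposited table gives the count of uniquely mapped reads per gene, the gene's length, the percent of that length covered by reads and the RPKM. The deposited counts sum to the total in each header, and a gene with no line was set to 0. The authors' RPKM was recomputed from counts and lengths to within 9.15e-06%. Percent coverage is as the authors deposited it. The choice of aligner, counting rule, strand setting, build and annotation was not given in the sources used here. Only unique reads are counted, so members of near-identical families (Cd209, Siglec, C1q) are less certain.

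CPM was computed after TMM scaling in edgeR 4.0.16 (R 4.3.3), where the factors were 0.991 for T-ALL bone marrow, 1.00 for normal bone marrow, 1.01 for T-ALL spleen and 0.996 for normal spleen. Level comparisons between genes use RPKM. No count model was used, since each group is 1 library. A gene counts as higher or lower if it differs by at least 2-fold on log2(CPM + 1), a scale that understates changes of low genes, and reaches 10 CPM in the higher library. Genes that reach it are called measured. Folds in words are plain CPM ratios, and their 95% intervals are exact binomial (scipy 1.17.1), and CPM intervals are exact Poisson. The size rule was tested on simulated data. Alternatives were median-of-ratios (DESeq2 1.42.0) and total-count scaling, TMM without the listed marker genes of other cell types, pseudocounts of 0.1 and 5, no minimum and 50 CPM, the deposited RPKM, thresholds of 1.5-fold and 4-fold, and folds set against the macrophage core median. In the TMM alternative only the listed genes were left out, and all other genes of those cell types stayed in.

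The 10 genes and the lists were chosen with earlier results of these data known. Lists name up to 4 genes with the largest log2 fold past the rule per T-ALL comparison. A gene that this rule would name is not reported here. Emr1 and the gene pairs set side by side were chosen after their values were seen. So were Ddx3y, Xist, Pecam1, Tie1, Tek, Kdr, Cdh5, Lyve1, Emcn, Scarb2, Masp1, Masp2, the levels of Lyz2 and Nr1h3 in spleen. Spi1 is listed as Sfpi1 in the files. Promoter windows are RefSeq sequences of GRCm38.p6 matched by Gene ID. Predicted, clone-named, antigen receptor and Y-linked genes and Xist were left out of the search for like patterns.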

Additional observations from a re-analysis of the deposited data

Results flagged for a closer look

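For 5 of the 10 genes the change in T-ALL ran in opposite directions in the 2 organs, higher in bone marrow and lower in spleen, each past 2-fold. Over all genes, 289 of 10312, or 2.80%, did so. Among the 5, Fcna was at the edge in spleen, with a log2 fold of -1.04. It missed 2-fold there with median-of-ratios scaling (-0.99) and with scaling that leaves out the listed marker genes of other cell types (-0.87). The log2 fold in bone marrow minus that in spleen was 5.38 for Siglec1, 4.94 for Mrc1, 4.89 for Fcna, 4.53 for Msr1 and 4.43 for Cd36. Each rests on 1 library per group, so the difference was not tested. The macrophage core list moved the same way, with medians of 2.53 in bone marrow and -1.02 in spleen. Set against those medians, the differences were 1.83 for Siglec1, 1.39 for Mrc1, 1.34 for Fcna, 0.98 for Msr1 and 0.89 for Cd36.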

How the results depend on the processing

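Of 88 counts of genes called higher or lower among the 10, 80 stayed within 1.5 times the reported count. At a 4-fold threshold, 0 genes were higher and 0 lower in T-ALL spleen, and 1 was lower in T-ALL spleen than in T-ALL bone marrow. With folds set against the macrophage core median, 2 were higher and 1 lower in T-ALL bone marrow, 0 were lower in T-ALL spleen, and 4 were higher and 1 lower in normal spleen against normal bone marrow. That setting subtracts 2.53, -1.02, 2.72 and -0.39 from the log2 folds of the 4 comparisons, so it turned the sign of 11 of 40. They were Scarb1 (-2.16), Cd68 (-0.14), Marco (-0.39) and Vsig4 (-0.60) in bone marrow, Scarb1 (0.10) and Cd68 (0.37) in spleen, Msr1 (-0.12), Scarb1 (-2.11) and Vsig4 (-1.17) between the normal organs, and Mrc1 (0.03) and Cd68 (0.24) between the T-ALL organs. It also turned the bone marrow minus spleen difference of Marco (-2.83), Cd5l (-0.49), Scarb1 (-2.26), Cd68 (-0.51) and Vsig4 (-0.54), and a pseudocount of 5 turned that of Marco (-0.54). Of 360 recomputed log2 folds of single genes, 330 kept their call, and the sign of such a fold turned under no other of the 9 settings. The pseudocounts and the CPM minimums cannot turn that sign. The deposited RPKM is scaled by total counts, so its signs repeat those of total-count scaling. Scaling without the listed marker genes of other cell types moved the median of all genes in spleen to 0.09, against -0.08, with 1300 genes higher and 751 lower in place of 1008 and 1080, and that of the normal organs to -0.20. Against the core median, 20 genes were higher and 9274 lower in bone marrow, and 4593 higher and 123 lower in spleen. The cause of these shifts beyond the construction of each setting was not tested. Order by TPM equals that by RPKM by construction, so it is no check. Counts of 1 to 36 reads limit Marco and Vsig4 in bone marrow. No paired analysis was possible because each group holds 1 library, and the sample titles give no replicate number.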

Other observations

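Marco and Cd209b are both known from marginal zone macrophages, and they did not move together in these libraries. Cd209b had 2 reads in T-ALL spleen and 24 reads in normal spleen, where Marco had 946 and 336 reads. Cd209f had 71 reads in T-ALL bone marrow, 10 reads in normal bone marrow and 0 reads in both spleen libraries. The Cd209 genes have near-identical copies, so their unique reads are uncertain, and both were chosen after their values were seen.

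The share of gene length covered by reads reached 97.9% or more for Mrc1, Cd5l, Siglec1, Scarb1, Cd68 and Fcna in at least 1 library. For Cd36 it was 77.6% in T-ALL bone marrow, 59.4% in normal bone marrow, 74.1% in T-ALL spleen and 77.1% in normal spleen, with 766, 115, 336 and 1091 reads. Scarb1, with 943 reads in T-ALL spleen, was covered over 98.1% of its length.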
